A study of Mus musculus with 81 samples.

Results

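The 40 genes described here act in G2 and mitosis, and all of them were found in the mouse gene table of 21887 protein-coding genes. They were taken by name, each as its mm10 gene model with 10 kb added on each side, and this stretch is called the locus of the gene. By role they comprised 10 cyclins, kinases and their regulators, 7 genes of the anaphase-promoting complex and the spindle checkpoint, 8 kinetochore and centromere genes, 10 spindle and motor genes, 3 cytokinesis genes, and the topoisomerase gene Top2a with the proliferation marker Mki67. The gene models ran from 2974 bp (Ube2c) to 101207 bp (Kif4). Of the 40 loci, 24 also held the start of another protein-coding gene, and at 9 genes that start lay within 1 kb of the gene's own. For genes without a tabulated start, 8 of the 40 among them, either end of the gene model was taken as a start.

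The series measured chromatin accessibility with ATAC-seq, in which the transposase Tn5 cuts open DNA, in 81 samples in 27 groups of 3. Reprogramming mouse embryonic fibroblasts (MEFs; strain Black6-129X1/SvJ, passages 2-3, heterozygous for each of Col1a1::tetOP-OKSM, R26-M2rtTA and Oct4GFP) carry the OKSM reprogramming factors behind a doxycycline-dependent promoter, and every MEF group was given 2 µg/mL doxycycline, LIF and ascorbic acid. In 3 MEF samples aphidicolin (5 µg/mL), which blocks the polymerases that copy DNA, was present from 4 h of induction for 10 h, and 3 untreated samples were harvested beside them at 14 h. Other MEF samples were taken at 6, 12 and 36 h, and at 60 h as 4 fractions (Q1 to Q4) sorted on CellTrace Violet, a dye that is diluted at each division. Which of the 4 was brightest is not given. WT 129/Ola embryonic stem (ES) cells (passages 35-45), kept with a GSK3 inhibitor, a MEK inhibitor and LIF, had the MEK inhibitor exchanged for an FGFR inhibitor before induction (0 h). They were sampled again after 9 h, and after 48 h as epiblast-like cells (EpiLC), in FGF2 and Activin A on fibronectin. In the repli-ATAC-seq samples, DNA made during a 10 min pulse of 20 µM EdU was captured at once (nascent) or 2 h after the label, with a 10 µM thymidine chase (mature), and the fraction that the capture left behind is the bulk sample. The labels do not say whether the 3 replicates of a group are separate cultures, so the p-values below rest on a spread between samples that may be technical only.

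Genes of this kind are transcribed late in the cell cycle. As background, their promoters are known for the cell cycle genes homology region (CHR), bound by the MuvB complex, which represses with DREAM partners in resting cells and activates with B-MYB and FOXM1 in G2, and for CCAAT boxes bound by NF-Y. Accessibility is not expression, and no RNA was measured here. In a bulk sample, fewer cells with an open site and a less open site in each cell cannot be told apart.

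The promoter table (RefSeq, build GRCm38.p6, 250 bases before to 50 after the gene start) held 34 promoters of 32 of the 40 genes. Ect2 and Prc1 had 2 each, whose windows overlap, so a match there can be counted in both, and the interval below treats the 34 as separate. Counted by gene, TTTGAA was in 23 of 32, CCAAT in 24 and both a CHR form and CCAAT in 21. TTTGAA, the commonest CHR form, was found on either strand in 25 of 34 promoters (73.5%, 95% Wilson interval 56.9% to 85.4%), against 17.9% of all 32851 promoters. The form TTCGAA, which is its own reverse complement and was counted separately from TTTGAA, was in 3 promoters (8.82%), against 1.56% of all. CCAAT stood in 26 of 34 (76.5%), against 37.4% of all promoters, and 18 held it at 2 or more places (52.9%), against 11.7% of all. Both a CHR form and CCAAT were present in 23 promoters (67.6%), against 7.53% of all. The E2F form TTCCCGC was in 0 of the 34, where 4.6% of all promoters held it; this short search says nothing of other E2F sites. Of 36 CHR matches in these promoters, 25 began within 50 bases of the gene start (69.4%), against 25.2% of the matches in all promoters. The promoters had a median GC content of 59.0% and a median of 24 CpG, against 52.7% and 7 CpG over all promoters. These are matches of letters, not binding sites.

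**Figure D1:**
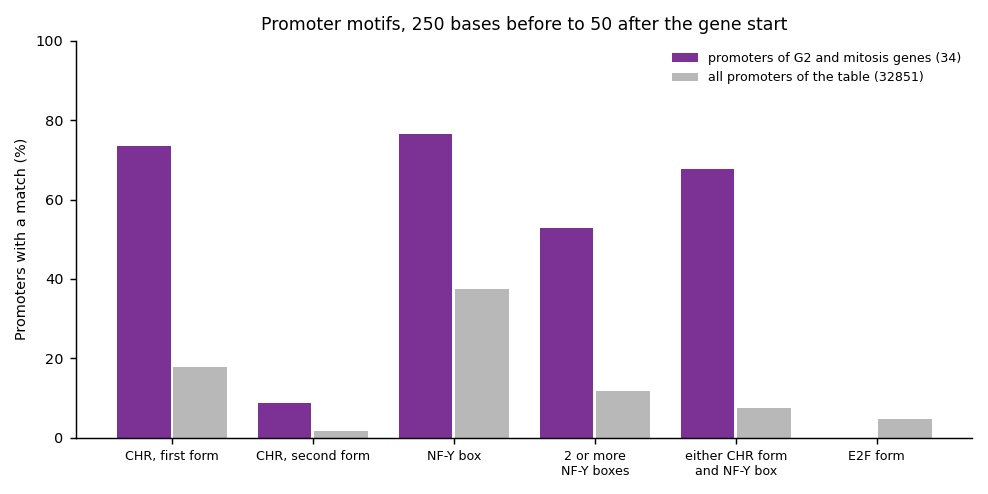
Percent of promoters with each match, for the 34 promoters of G2 and mitosis genes (left bar of each pair) and all 32851 promoters of the table (right bar). The first CHR form is at 73.5% against 17.9%, the NF-Y box at 76.5% against 37.4%, and the E2F form is at 0 in the G2 and mitosis genes.

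To show how the matches lie, 6 promoters that hold both motifs are printed, from 150 bases before to 30 after the gene start. Their genes include those with the lowest (Cenpf) and the highest (Top2a) fold change of the strongest start region with aphidicolin, given below. They lie on GRCm38.p6 at chr9:70421525-70421704 (Ccnb2, minus strand), chr10:69352883-69353062 (Cdk1, minus strand), chr4:118437314-118437493 (Cdc20, minus strand), chr1:189688057-189688236 (Cenpf, minus strand), chr19:37376232-37376411 (Kif11, plus strand) and chr11:99024160-99024339 (Top2a, minus strand). Each is written 5′ to 3′ along the gene. Capitals mark CCAAT or its reverse complement ATTGG, and TTTGAA, its reverse complement TTCAAA, or TTCGAA.
Ccnb2: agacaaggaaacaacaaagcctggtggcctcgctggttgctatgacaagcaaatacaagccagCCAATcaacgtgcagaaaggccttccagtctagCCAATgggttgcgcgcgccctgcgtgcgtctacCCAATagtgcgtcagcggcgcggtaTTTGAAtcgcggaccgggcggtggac
Cdk1: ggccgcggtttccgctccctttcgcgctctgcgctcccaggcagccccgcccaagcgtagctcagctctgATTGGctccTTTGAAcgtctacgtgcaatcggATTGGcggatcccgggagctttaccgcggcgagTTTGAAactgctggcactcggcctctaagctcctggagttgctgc
Cdc20: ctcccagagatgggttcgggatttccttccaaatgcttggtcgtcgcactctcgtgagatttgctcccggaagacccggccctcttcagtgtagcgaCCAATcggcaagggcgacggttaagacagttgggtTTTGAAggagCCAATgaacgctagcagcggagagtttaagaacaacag
Cenpf: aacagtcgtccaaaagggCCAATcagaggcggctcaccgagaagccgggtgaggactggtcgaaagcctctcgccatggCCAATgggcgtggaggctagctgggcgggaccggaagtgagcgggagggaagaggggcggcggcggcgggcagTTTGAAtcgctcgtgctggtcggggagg
Kif11: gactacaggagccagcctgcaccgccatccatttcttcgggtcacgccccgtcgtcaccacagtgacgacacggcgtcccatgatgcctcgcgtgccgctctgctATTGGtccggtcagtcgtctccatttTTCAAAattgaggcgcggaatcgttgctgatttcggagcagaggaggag
Top2a: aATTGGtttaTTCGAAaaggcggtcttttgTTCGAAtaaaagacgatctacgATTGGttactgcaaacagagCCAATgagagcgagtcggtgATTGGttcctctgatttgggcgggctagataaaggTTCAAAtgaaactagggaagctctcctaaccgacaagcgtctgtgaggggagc
Within these stretches, the CCAAT boxes of Ccnb2 begin 87, 54 and 21 bases before the start, and TTTGAA begins at base 5 of the gene. Cdk1 has TTTGAA 71 and 15 bases before the start, and Cdc20 has it 18 bases before. In Cenpf it begins at base 3, and in Kif11 and Top2a the reverse form lies 19 and 23 bases before the start. Top2a is the only promoter of the 6 with the form TTCGAA, at 140 and 120 bases before the start.

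The aphidicolin comparison rests on a table of whole read counts over 139000 regions, of which 138996 passed the filter on low counts. Counts summed to between 55158844 and 78677381 in the 3 aphidicolin libraries and between 41183769 and 49440524 in the 3 untreated libraries. All 40 loci held at least 1 tested region, 178 in all. Values are in CPM, counts scaled to the library size with TMM factors, and a region or locus is called when edgeR's quasi-likelihood test gives a Benjamini-Hochberg adjusted p under 0.05 over the whole table. At 14 h, the fibroblast marker list had 3 of 8 loci lower and 2 higher with aphidicolin. Endothelial markers had 3 of 4 loci higher and 0 lower, muscle and neural markers 3 of 5 higher and 1 lower, and macrophage markers 2 of 5 higher and 2 lower. Of all loci, 25.5% were higher and 26.1% lower, and the part of other cell types in the results was not tested.

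Gene starts of the G2 and mitosis genes became less accessible with aphidicolin. For the 8 genes without a tabulated start, regions at either end of the gene model count as start regions. Of 47 regions within 1 kb of a gene's own start, 37 were lower and 0 higher, where 46.2% of all 17047 gene-start regions were lower and 3.87% higher. Their median log2 fold change was -0.37, with a range of -0.75 to 0.04, against a median of -0.24 over all gene-start regions and 0.018 over all regions. Gene-start regions were stronger than the rest of the table (median log2 CPM 4.06, against 1.64), so the 23 starts in the middle of the members' range of strength (log2 CPM between 3.62 and 5.08) were set beside all 6714 gene-start regions of that range. There 19 of 23 were lower with a median of -0.39, against 56.0% lower and a median of -0.27 in all. With offsets that follow region strength, which remove a fall shared by regions of equal strength, 12 of 47 were lower and 1 higher, and 9.03% of all gene-start regions were lower and 6.76% higher. With library totals alone, 23 of 47 were lower and 0 higher, and 23.7% of all gene-start regions were lower and 9.07% higher. Under that last scaling the median of all regions moved to 0.18.

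**Figure D2:**
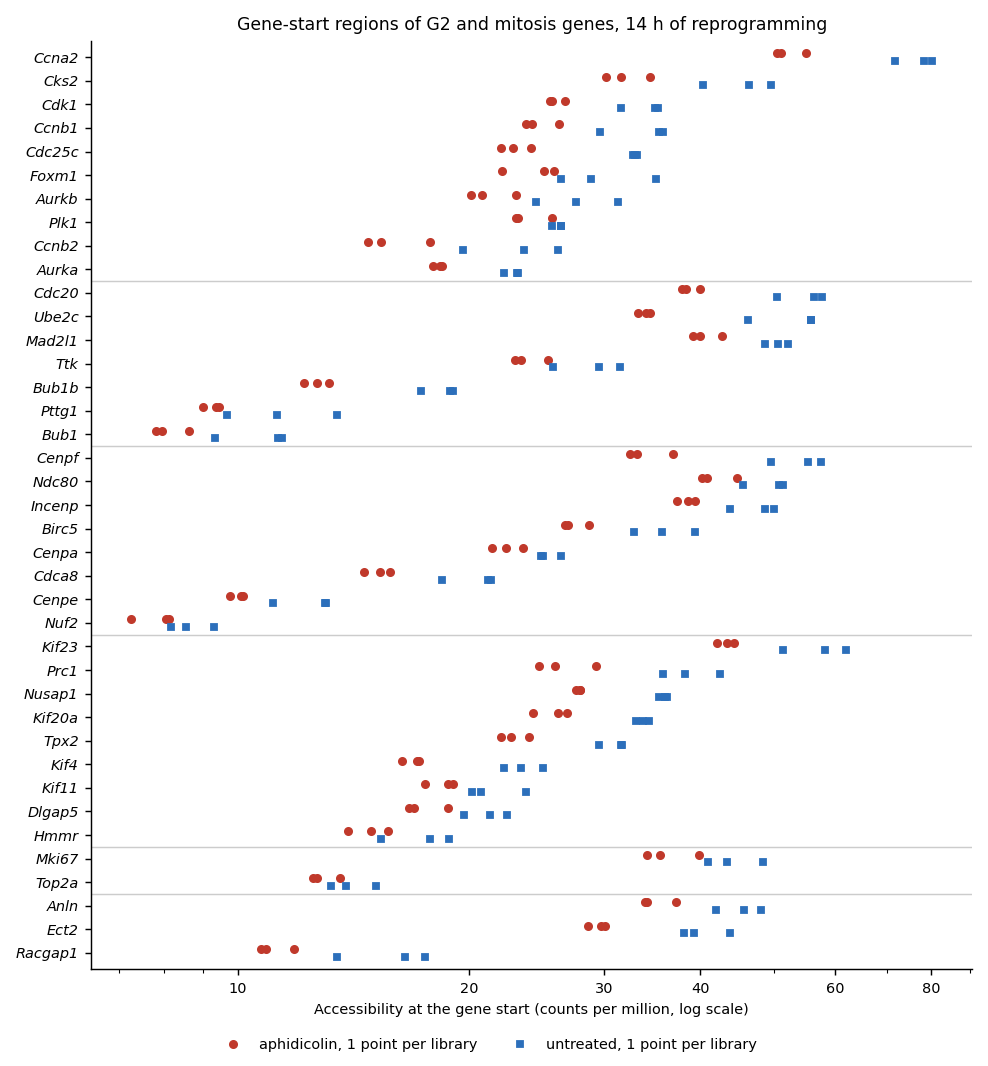
Accessibility of the strongest region within 1 kb of the start of 39 genes, in CPM on a log axis, 1 point per library (aphidicolin, red circles, drawn above untreated, blue squares), grouped by role. In 37 genes all 3 aphidicolin libraries lie below all 3 untreated libraries, from Ccna2 with 52.1 against 76.8 CPM on average to Nuf2 with 7.82 against 8.67 CPM.

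Taking for each gene the strongest region at its start left 39 genes, since Kif2c had none. Of these, 34 were lower and 0 higher, with a median log2 fold change of -0.39, where 46.2% of all gene-start regions were lower and 3.87% higher. No strongest region per gene was picked for all genes, so that share also covers weaker regions. In 37 of 39 the groups did not overlap, with aphidicolin the lower, against 47.4% of all gene-start regions. Aphidicolin lay above untreated without overlap in 0 of the 39 and at 5.59% of all gene-start regions. In the middle range of strength above, aphidicolin was lower without overlap at 21 of 23 member starts and 3796 of all 6714 gene-start regions. The mean CPM of the untreated samples ran from 8.67 (Nuf2) to 76.8 (Ccna2).

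Among the cyclins and kinases, Ccna2, which encodes cyclin A2, the partner of CDK2 and CDK1, had the strongest start of the 39. Its region held 55.0, 50.4 and 51.0 CPM in aphidicolin libraries a, b and c, against 80.3, 78.3 and 71.9 CPM in untreated libraries a, b and c. The groups were well apart, and accessibility fell by 0.56 on the log2 scale (SE 0.079, edgeR adjusted p = 0.000128). Ccnb2, a B-type cyclin gene, held 17.8, 14.8 and 15.4 CPM with aphidicolin, against 26.1, 23.6 and 19.7 CPM in untreated samples. It fell by 0.54 (SE 0.10, adjusted p = 0.000912) without overlap, although untreated library c came near aphidicolin library a. Ccnb1, the main mitotic cyclin gene, had 26.2, 23.8 and 24.1 CPM with aphidicolin, against 35.4, 35.7 and 29.7 CPM in untreated samples, a log2 fold change of -0.45 (adjusted p = 0.00113). Cdk1, the mitotic kinase these cyclins activate, had 26.7, 25.5 and 25.6 CPM with aphidicolin, against 35.2, 34.9 and 31.6 CPM in untreated samples, a log2 fold change of -0.39 (adjusted p = 0.0015). Neither pair of groups overlapped.

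Cks2, a small CDK-binding subunit, fell by 0.50 (34.4, 30.2 and 31.5 CPM with aphidicolin, against 49.5, 46.4 and 40.4 CPM in untreated samples). Cdc25c, the phosphatase that activates CDK1, fell by 0.52 (mean 23.0 CPM with aphidicolin, against 32.9 CPM in untreated samples). Aurora kinase genes were lower too. Aurka held 18.3, 17.9 and 18.5 CPM with aphidicolin, against 23.2, 23.1 and 22.2 CPM in untreated samples (log2 fold change -0.32), and shares its start with Cstf1, so the region cannot be given to 1 of the 2 genes. Aurkb held 23.0, 20.8 and 20.1 CPM, against 31.3, 27.5 and 24.5 CPM in untreated samples (-0.38). Foxm1, the transcription factor of this programme, held 25.8, 22.1 and 25.02 CPM with aphidicolin, against 35.1, 28.9 and 26.4 CPM in untreated samples (-0.31, adjusted p = 0.0221), at a start it shares with Rhno1. Plk1, the polo kinase, was not called: 25.7, 23.1 and 23.2 CPM with aphidicolin lay just below 26.4, 26.3 and 25.7 CPM in untreated samples (log2 fold change -0.13, SE 0.080, adjusted p = 0.229).

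In the anaphase-promoting complex and checkpoint group, all 7 starts were lower. Ube2c, the ubiquitin-conjugating enzyme of the complex, held 34.4, 34.1 and 33.2 CPM with aphidicolin, against 55.7, 55.7 and 46.2 CPM in untreated samples. Cdc20, the complex's activator, held 39.99, 37.9 and 38.3 CPM with aphidicolin, against 57.7, 56.3 and 50.4 CPM in untreated samples. In both genes the groups stood clear of each other, and the starts fell by 0.63 (SE 0.085, adjusted p = 0.000103) and 0.50 (SE 0.080, adjusted p = 0.00027). Bub1b, the checkpoint protein BUBR1, fell by 0.54 (13.1, 12.2 and 12.7 CPM with aphidicolin, against 18.9, 19.0 and 17.3 CPM in untreated samples). Bub1, a checkpoint kinase, had one of the weaker starts, with 8.63, 7.95 and 7.82 CPM against 11.4, 11.3 and 9.35 CPM in untreated samples (-0.40). Mad2l1 and Ttk, which act in the same checkpoint, and Pttg1, which encodes securin, fell by 0.31, 0.28 and 0.31.

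Kinetochore and centromere genes held both large and small differences. Cenpf, a large protein of the outer kinetochore, held 36.9, 32.4 and 33.1 CPM with aphidicolin, against 57.6, 55.4 and 49.5 CPM in untreated samples. This was the largest fall of any strongest start, 0.67 on the log2 scale (SE 0.085, adjusted p = 7.53e-05). Birc5, the survivin subunit of the chromosomal passenger complex, held 28.7, 26.9 and 26.7 CPM, against 39.4, 35.7 and 32.8 CPM in untreated samples (-0.39). Its partners Cdca8 and Incenp were also lower (-0.42 and -0.30), as was the kinetochore motor Cenpe (10.2, 9.77 and 10.1 CPM with aphidicolin, against 13.0, 13.0 and 11.1 CPM in untreated samples, -0.31). Cenpa, the centromeric histone H3 variant, and Nuf2, of the NDC80 complex, were not called (-0.18 and -0.15, adjusted p = 0.088 and 0.211). Ndc80 itself was lower (-0.23), but its direction turned with the scaling: with offsets that follow strength it was higher (0.16, adjusted p = 0.0449).

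Of 9 spindle and motor genes with a start region, 8 were lower. Prc1, which bundles midzone microtubules, held 29.3, 24.7 and 25.9 CPM with aphidicolin, against 42.5, 38.2 and 35.8 CPM in untreated samples (-0.55, SE 0.089, adjusted p = 0.000322). Tpx2, the spindle assembly factor, held 24.0, 22.0 and 22.7 CPM, against 29.6, 31.6 and 31.5 CPM in untreated samples (-0.43). Both pairs of groups were separate. Kif23, a kinesin of the central spindle, held 44.3, 43.4 and 42.1 CPM with aphidicolin, against 62.0, 58.3 and 51.4 CPM in untreated samples (-0.40). Kif20a, a kinesin of cytokinesis whose start region also covers the start of Brd8, held 26.9, 26.1 and 24.2 CPM, against 33.7, 34.3 and 33.0 CPM in untreated samples (-0.39). Kif11, the motor that separates the spindle poles, was near the threshold, with 19.1, 18.8 and 17.5 CPM against 23.7, 20.8 and 20.2 CPM in untreated samples (-0.22, SE 0.086, adjusted p = 0.0496). Hmmr, a spindle protein whose start lies beside that of Nudcd2, overlapped between groups and was not called (-0.22, adjusted p = 0.0647).

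All 3 cytokinesis genes were lower at the start: Ect2 (-0.45), Racgap1 (-0.51) and the actin-binding anillin gene Anln (-0.37), of which Ect2, needed for the cleavage furrow, held 30.1, 28.6 and 29.8 CPM with aphidicolin, against 43.7, 39.2 and 38.1 CPM in untreated samples. Mki67, the gene of the marker Ki-67, held 39.9, 34.2 and 35.5 CPM with aphidicolin, against 48.3, 43.4 and 41.0 CPM in untreated samples (-0.28, adjusted p = 0.0194). Top2a, the mitotic topoisomerase, held 12.7, 12.5 and 13.6 CPM with aphidicolin, against 13.2, 15.1 and 13.8 CPM in untreated samples. Here the groups overlapped and the region was not called (-0.12, SE 0.086, adjusted p = 0.28). With the strength offsets, the strongest start was still called lower in 9 genes: Ccnb2, Cdc25c, Bub1, Bub1b, Ube2c, Cenpf, Kif4, Prc1 and Racgap1. Under these offsets Plk1, Mad2l1, Ttk, Cenpa, Incenp, Ndc80, Kif11, Kif23, Top2a and Mki67 had values above 0, of which Ndc80 alone was called (higher, adjusted p = 0.0449), and with library totals Plk1, Nuf2 and Top2a did, none of them called.

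With TMM factors, most start regions were lower in both motif classes below. A region was classed by the matches of all promoters it overlaps, so those of a neighbouring gene's promoter count too. Of 22 regions that overlap a member promoter and were classed with both a CHR form and CCAAT, 18 were lower (median -0.40). Of 9 such regions classed without both, 8 were lower (median -0.31). Over all tested regions at a promoter, 54.8% of 799 with both and 50.0% of 11600 without both were lower (medians -0.26 and -0.25). With the strength offsets, 8 of the 22 member regions with both were lower (median -0.10) and 0 of the 9 without both (median -0.09), where 74 of 799 and 841 of 11600 were lower over all promoters. The difference between the member classes was not tested under either scaling. Top2a, the promoter richest in matches, had the value nearest to 0 of the 39 strongest starts (-0.12, not called).

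With TMM factors, a smaller share of regions was lower away from gene starts, and this did not hold with the strength offsets. Of 111 regions elsewhere in the loci, 28 were lower and 5 higher, with a median of -0.16, where over all regions 17.9% were lower and 18% higher, and of regions away from any gene start 13.9% were lower. Of 20 regions at the start of another gene, 8 were lower and 0 higher, where 46.2% of all gene-start regions were lower and 3.87% higher. With the strength offsets, 30 of the 111 regions elsewhere were lower and 3 higher, where 10.7% of all regions were lower and 11.3% higher. Of the 47 at own starts 12 were lower and 1 higher, and of the 20 at other starts 3 were lower and 1 higher. Of all gene-start regions 9.03% were lower and 6.76% higher under these offsets. With library totals alone, 15 of the 111 elsewhere were lower and 13 higher, where 7.99% of all regions were lower and 30.3% higher. At own starts 23 were lower and 0 higher, and at other starts 6 were lower and 1 higher. Of all gene-start regions 23.7% were lower and 9.07% higher under library totals. Regions away from any gene start were not counted separately over the whole table under these scalings. Together, 73 of the 178 regions were lower and 5 higher. Groups did not overlap in 92 of the 178 regions with aphidicolin lower and in 7 with aphidicolin higher, against 22.9% and 23.7% of all regions. Over the 178 regions, the called count came to 44 lower and 14 higher with library totals alone, where 7.99% of all regions were lower and 30.3% higher, and to 45 lower and 5 higher with the strength offsets, where 10.7% were lower and 11.3% higher.

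Regions with lower accessibility more than 1 kb from the gene's tabulated start are given here for Kif23, Kif2c and Anln. The regions of Kif2c and Anln, and that of Incenp below, were named after their values were seen. At Kif23, 3 regions within the 10 kb beyond the gene model, past the start of the ribosomal protein gene Rplp1, fell by 1.05, 0.74 and 0.70. The first, at chr9:61910672-61910912 (mm10), held 5.51, 5.03 and 5.14 CPM with aphidicolin, against 11.8, 10.8 and 9.82 CPM in untreated samples (SE 0.098, adjusted p = 1.19e-05). The groups were far apart there. Kif2c, a microtubule depolymerase on the minus strand, had no region at the start the promoter table gives. Its region at the upstream end of the gene model, chr4:117182108-117182930, fell by 0.42 (14.6, 13.9 and 13.5 CPM with aphidicolin, against 17.3, 20.0 and 18.9 CPM in untreated samples). Inside Anln, a region at chr9:22386424-22386594 held 5.44, 5.53 and 5.76 CPM with aphidicolin, against 9.65, 9.40 and 8.65 CPM in untreated samples (-0.73).

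The 5 regions that were higher were weak. The largest rise, at chr19:9908627-9908890 beyond Incenp, was 1.18 (SE 0.22) at 1.45, 1.71 and 2.19 CPM with aphidicolin, against 0.834, 0.958 and 0.550 CPM in untreated samples. The others were 2 at Nusap1 (0.52 and 0.54), 1 inside Kif11 (0.52) and 1 inside Prc1 (0.38).

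Summed over the whole locus, 20 of 40 genes were lower and 2 higher, where 26.1% of all 18144 loci were lower and 25.5% higher. The median was -0.12, against 0.0028 over all loci. The kinases and cyclins led, with 8 of 10 lower, followed by 4 of 7 in the anaphase-promoting complex and checkpoint group, 5 of 10 spindle genes, 2 of 8 kinetochore genes and 1 of 3 cytokinesis genes. Groups did not overlap in 20 of the 40 loci with aphidicolin below untreated, against 29.6% of all loci, and in 3 with aphidicolin above, against 29.4%. With the strength offsets 16 were lower and 1 higher, where 20.4% and 20.1% of all loci were. Without any gene-start region, another choice made after seeing the data, 36 loci remained to test, of which 9 were lower and 4 higher, where 23.5% and 23.6% of all loci were. These values are relative to the typical locus. With the library sizes and factors of the region test, a choice made after seeing the data, the median of all loci moved to -0.20, 55.6% of all loci were lower and 9.15% higher, and 35 of the 40 were lower and 0 higher. Without untreated library b, 13 loci were lower and 1 higher, where 19.5% of all loci were lower and 19.2% higher.

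**Figure D3:**
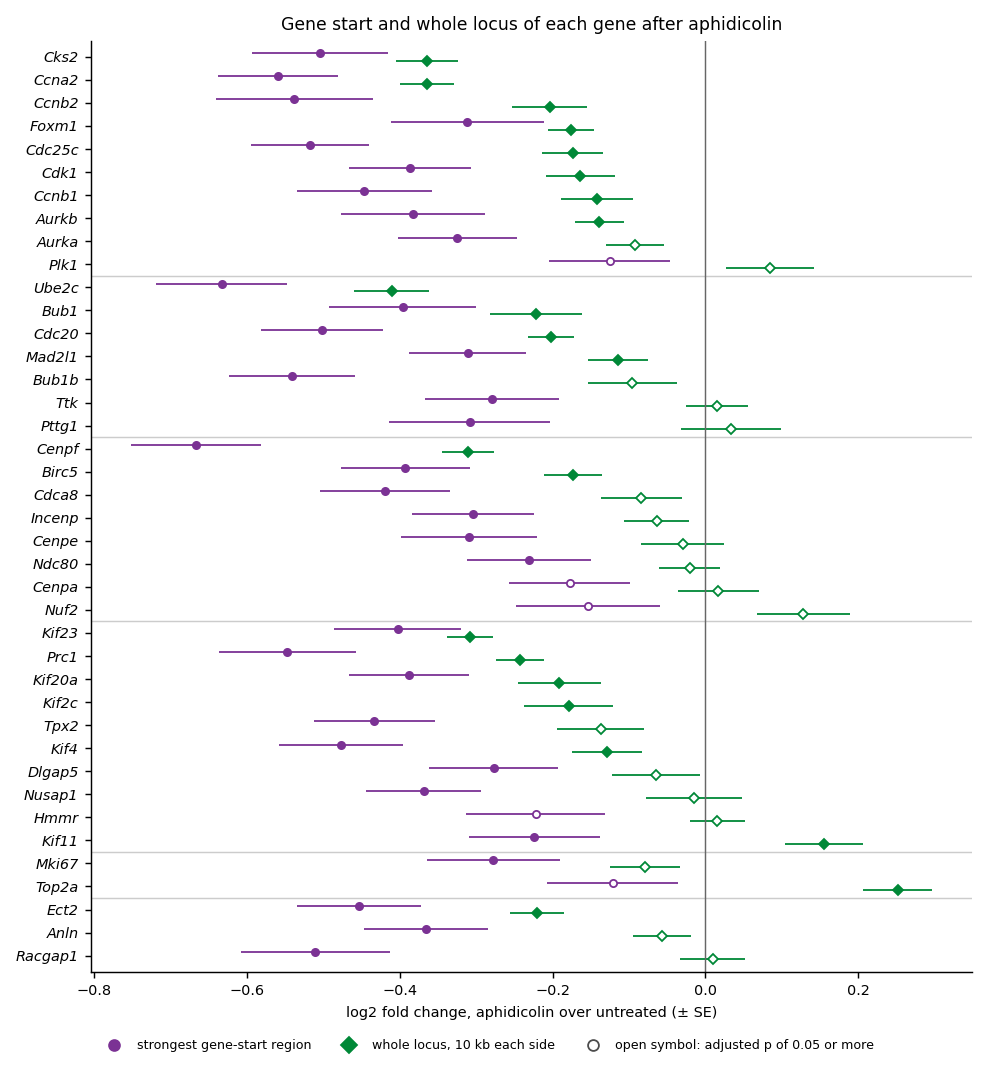
log2 fold change, aphidicolin over untreated, with its SE, for the strongest gene-start region of each gene (circles) and the whole locus (diamonds, relative to the typical locus), grouped by role; filled symbols have an adjusted p under 0.05. Start values run from -0.67 (Cenpf) to -0.12 (Top2a) and locus values from -0.41 (Ube2c) to 0.25 (Top2a); on the scale of the region test the Top2a locus is at 0.05 and the Kif11 locus at -0.04.

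The loci with the largest falls were Ube2c (-0.41), Cks2 (-0.36), Ccna2 (-0.36), Cenpf and Kif23 (-0.31 each). For Ube2c the sums were 34.9, 36.0 and 35.7 CPM with aphidicolin, against 47.2, 50.3 and 44.3 CPM in untreated samples. Cks2 gave 68.9, 64.7 and 66.6 CPM, against 89.1, 86.9 and 81.3 CPM in untreated samples, and part of this lay at the start of its neighbour Secisbp2, where the region fell by 0.62. Without starts of other genes, Cks2 remained lower at -0.32 (adjusted p = 0.000752). The Kif23 locus gave 125.9, 126.0 and 121.0 CPM with aphidicolin, against 153.9, 155.4 and 152.5 CPM in untreated samples, well apart. Prc1 (-0.24), Bub1 (-0.22), Ect2 (-0.22), Ccnb2 and Cdc20 (-0.20 each) followed. Bub1 was not called without untreated library b (adjusted p = 0.06).

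Top2a and Kif11 were the loci called higher, and neither call held on the scale of the region test, chosen after seeing the data. With library totals both were called higher (0.28 and 0.18, edgeR adjusted p = 0.00077 and 0.0138). With the strength offsets Top2a was called higher (0.24, adjusted p = 0.0021) and Kif11 was not called (0.14, adjusted p = 0.06). Top2a stayed called whichever library was left out (adjusted p up to 0.012). The Top2a locus gave 36.0, 37.0 and 38.4 CPM with aphidicolin, against 31.4, 31.8 and 30.3 CPM in untreated samples (0.25, SE 0.045, adjusted p = 0.00117). Much of its sum was the region at the start of Gjd3, a connexin gene, with 21.7, 20.9 and 21.0 CPM with aphidicolin against 21.1, 17.4 and 15.0 CPM in untreated samples; without starts of other genes the locus was at 0.013 (adjusted p = 0.903). Kif11 gave 33.2, 35.1 and 33.7 CPM with aphidicolin, against 30.6, 28.9 and 32.2 CPM in untreated samples (0.16, adjusted p = 0.0264). The call was lost without untreated library b, aphidicolin library b or aphidicolin library c (adjusted p up to 0.136), and on the scale of the region test Kif11 was at -0.04 (adjusted p = 0.555) and Top2a at 0.05 (adjusted p = 0.491).

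Start regions of other cell cycle genes are set beside those of all genes, of which 46.2% were lower and 3.87% higher (median -0.24), and their loci beside all loci, of which 26.1% were lower and 25.5% higher. Among 63 other G2 and mitosis genes, 42 of 72 start regions were lower and 2 higher (median -0.27), and 18 loci were lower and 4 higher. The condensin gene Ncapd2 (-0.38), Troap (-0.35), the kinesin Kif22 (-0.30) and the kinetochore gene Spc24 (-0.29) had the largest falls by locus. Regulators of the DREAM and MuvB complexes had 15 of 19 start regions lower and 0 higher, and S phase and G1/S genes 25 of 35 lower and 0 higher (median -0.31). CDK inhibitors and p53 targets had 9 of 14 lower. In 16 genes with ubiquitous promoters, 19 of 20 start regions were lower (median -0.43). No difference between these lists, or between a list and all genes, was tested.

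Peak lists covered the same loci in the other samples. Apart from the lists of the 6 aphidicolin and untreated libraries, each is 1 pooled or consensus list per group with no replicates. A list's depth is unknown and its length varies from 3222 to 203188 peaks, so counts stand beside those of all genes and carry no test. Fibroblast markers had 110 peaks in MEFs at 6 h and 63 in ES cells at 0 h, and pluripotency markers had 32 and 95.

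Nearly every start was open in bulk. In each bulk, sorted and per-library list, 39 of 40 genes (97.5%, Wilson interval 87.1% to 99.6%, counting error only) had a peak within 1 kb of the start. Of all genes, 71.2%, 71% and 72.7% had one in ES cell bulk at 0, 9 and 48 h, and 68%, 69.7% and 67.2% in nascent-arm MEF bulk at 6, 12 and 36 h. The mature-arm MEF bulk gave 69.1%, 68.7% and 67.5%, and Q1 to Q4 gave 61.7%, 61.5%, 62% and 56.2%. The aphidicolin libraries gave 68.1%, 68.9% and 68.5%, and the untreated libraries 66.9%, 66.5% and 65.9%. Kif2c lacked a peak at its tabulated start in every list, but had one at the upstream end of its gene model in all lists except the nascent and mature ones of MEFs at 6 h. Mature lists also gave 39, where 63.4%, 66.3% and 67.3% of all genes had a peak in ES cells at 0, 9 and 48 h, and 59.5% and 56.6% in MEFs at 12 and 36 h. The exception was MEFs at 6 h with 25 of 40, where the list held 14281 peaks and 29.7% of all genes had one. In ES cell bulk at 0 h, the strongest start peak of each member stood at a median percentile of 94.6 in the list. Every start peak of all genes together had a median of 86.1. That second value also covers weaker peaks of a gene, since only members were reduced to their strongest peak. Ccna2 was at percentile 99.96 there and 99.98 in MEF bulk at 12 h, while Pttg1 was lowest in ES cells, at 66.8. Scores are the authors' own and were used within a list only.

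Most of these starts also had a peak in nascent chromatin, except at 6 h in MEFs. In nascent ES cell chromatin, 36, 33 and 38 of 40 starts had a peak at 0, 9 and 48 h, where 50.5%, 48.9% and 59.5% of all genes did. In nascent MEF chromatin, 10, 37 and 36 had one at 6, 12 and 36 h, where 9.98%, 48.2% and 47.3% of all genes did. The 10 starts of the short 6 h list, which held 3222 peaks, were those of Ccna2, Ccnb2, Aurka, Cenpf, Kif11, Kif23, Incenp, Nusap1, Mad2l1 and Ndc80. Nuf2 was missing at 0 h and 9 h in ES cells and at all 3 times in MEFs. Pttg1 was missing at 9 h in ES cells and at all 3 times in MEFs. Racgap1 was missing at 9 h and 48 h in ES cells and at 6 h and 36 h in MEFs. Where present, the strongest start peak of each member stood at a median percentile of 58.4 in nascent ES cell chromatin at 0 h. Every start peak of all genes had a median of 64.8 there. At 12 h in MEFs these values were 82.8 and 64.8. Again only members were reduced to their strongest peak. Within the nascent list of ES cells at 0 h, Ccna2 was at percentile 97.2, Plk1 at 80.6 and Top2a at 25.9.

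**Figure D4:**
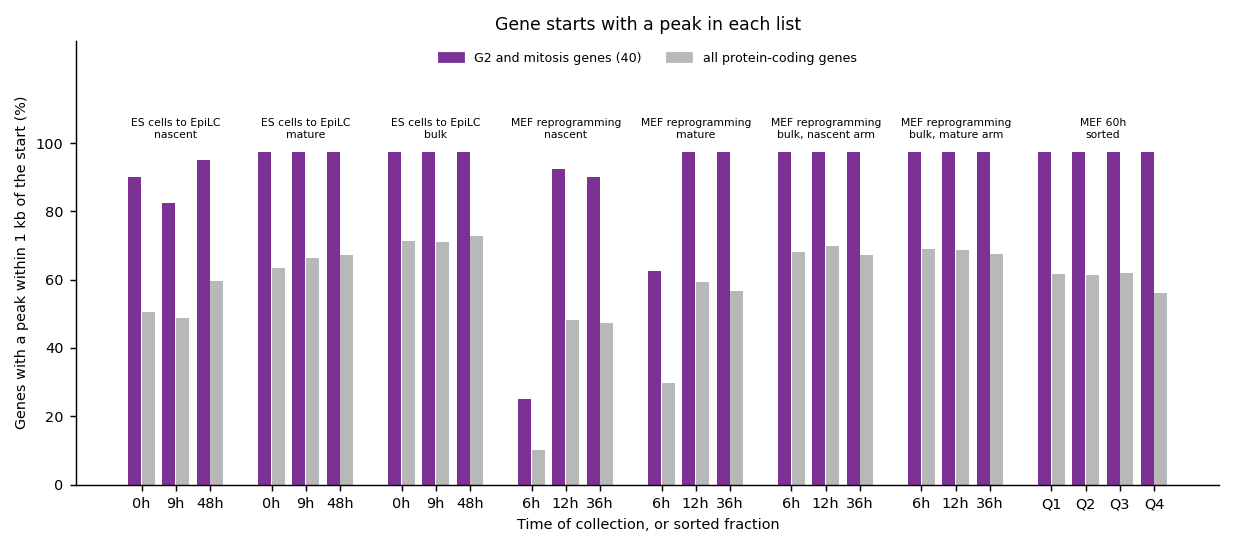
Percent of genes with a peak within 1 kb of the start in each list, for the 40 G2 and mitosis genes (left bar of each pair) and all protein-coding genes (right bar). The G2 and mitosis genes reach 97.5% in each bulk and sorted list and lie between 25% and 95% in the nascent lists, where all genes lie between 9.98% and 59.5%.

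Elsewhere in the loci nascent chromatin held few peaks. Of 45 bulk peaks at the genes' own starts in ES cells at 0 h, 36 overlapped a nascent peak (80%, against 58.9% over all gene-start peaks), and 42 a mature one (93.3%, against 79.7%). Peaks elsewhere in the loci are set beside all peaks of the list away from gene starts, inside gene loci or not. Of 190 such bulk peaks in the loci, 11 overlapped a nascent peak (5.79%, against 6.19%) and 71 a mature one (37.4%, against 37.6%). In MEFs at 12 h, 37 of 48 own-start peaks of the nascent-arm bulk overlapped a nascent peak (77.1%, against 53.4%), and 16 of 146 elsewhere (11.0%, against 5.78%).

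Over conversion to EpiLC, the loci held fewer peaks at 48 h in a list of nearly the same length. Bulk lists held 255, 253 and 223 peaks at the 40 loci at 0, 9 and 48 h, in lists of 154235, 154758 and 152932 peaks. Between 48 h and 0 h, 11 genes had more peaks and 22 fewer, where 42.3% of all genes with a peak had more and 36.4% fewer. Own-start peaks numbered 45, 48 and 48 at the 3 times, and peaks elsewhere 190, 185 and 150. Cdk1 had 9, 9 and 5 bulk peaks at 0, 9 and 48 h, Kif11 had 11, 9 and 7, and Ndc80 6, 6 and 2. Gains were seen at Bub1b (8, 8 and 11), Cdc20 (3, 4 and 6) and Cenpe (6, 6 and 9). Mature lists held 128, 177 and 128 peaks at the loci and nascent lists 59, 52 and 74, in mature lists of 66518, 94946 and 75941 peaks and nascent lists of 19314, 18587 and 27693.

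**Figure D5:**
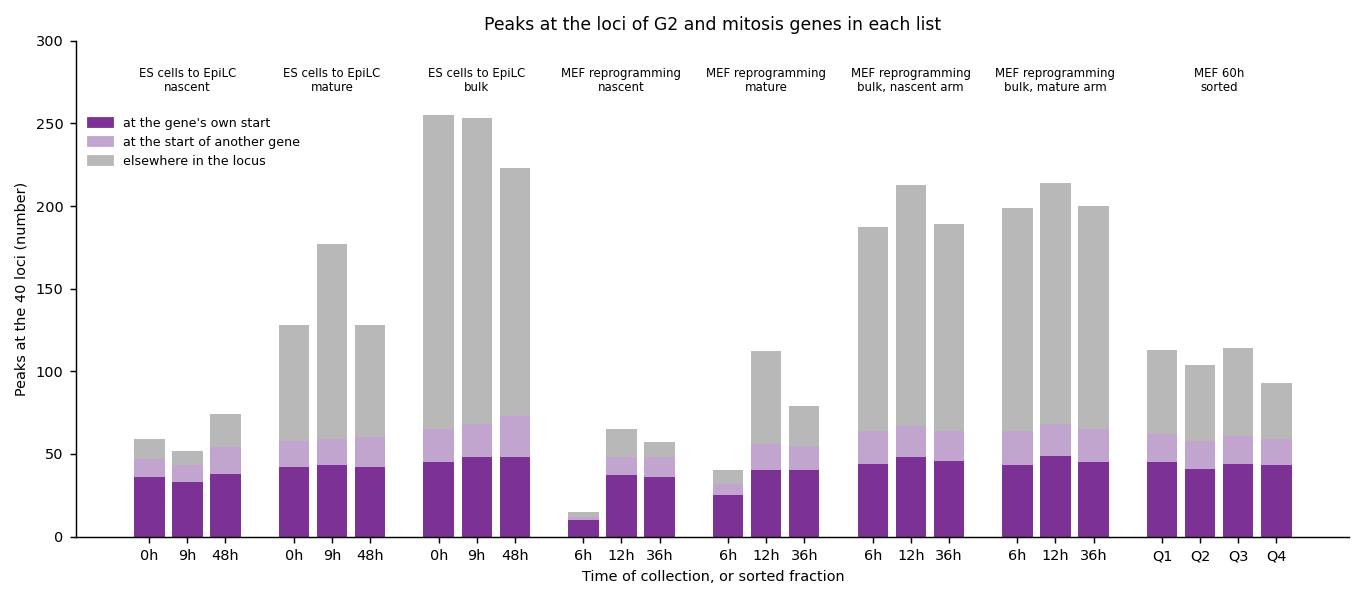
Number of peaks at the 40 loci in each pooled list, split into the genes' own starts, starts of other genes and elsewhere. Bulk ES cell lists hold 255, 253 and 223 peaks at 0, 9 and 48 h, with 45, 48 and 48 at own starts, and the nascent lists hold between 15 and 74.

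In reprogramming MEFs the loci held about as many peaks at 36 h as at 6 h in shorter lists. Bulk from the nascent arm held 187, 213 and 189 peaks at the loci at 6, 12 and 36 h, in lists of 177275, 199056 and 137173 peaks. Between 36 h and 6 h, 20 genes had more and 15 fewer, where 21.7% of all genes had more and 51.5% fewer. Bulk from the mature arm gave 199, 214 and 200 peaks, with 18 genes having more and 12 fewer, where 13.6% of all genes had more and 60.6% fewer. Kif4, a chromokinesin, had the largest loss in both arms, with 11, 12 and 5 peaks in the nascent arm and 14, 11 and 7 in the mature arm. Cks2 had 6, 4 and 3 in both. Plk1 had 1, 1 and 3 peaks in the nascent arm and 1, 2 and 4 in the mature arm. Nuf2 had 3, 5 and 6 in the nascent arm, and Cdk1 had 5, 8 and 8 in the mature arm.

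In the sorted fractions, Q1, Q2, Q3 and Q4 held 113, 104, 114 and 93 peaks at the loci, of which 45, 41, 44 and 43 were at own starts and 51, 46, 53 and 34 elsewhere. Between Q4 and Q1, 3 genes had more and 18 fewer, where 11.7% of all genes had more and 49.3% fewer, and the Q4 list was the shortest (57762 peaks, against 71163 in Q1).

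MEF and ES cell lists shared most own-start peaks of these genes. At 36 h of reprogramming, 44 of 46 own-start peaks overlapped one of ES cells at 0 h (95.7%, against 88.5% over all gene-start peaks), and 43 of 45 the other way (95.6%, against 82.2%). Elsewhere in the loci, 55 of 125 MEF peaks overlapped an ES cell peak (44.0%, against 34.6% over all peaks of the list away from gene starts). The other way, 57 of 190 ES cell peaks overlapped a MEF peak (30%, against 30.3%). The MEF list held 189 peaks at the loci, against 255 in ES cells, with 5 genes having more and 29 fewer, where 28.1% of all genes had more and 56.7% fewer.

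Peaks at the loci were also counted per aphidicolin and untreated library. The 3 aphidicolin libraries had 184, 211 and 197 peaks at the loci, a mean of 197.3 ± 13.5, and the 3 untreated libraries 186, 192 and 173, a mean of 183.7 ± 9.71 (SD, n = 3 each). These ranges overlapped (two-sided exact permutation p = 0.3; the smallest p that 3 against 3 allows is 0.1). Per 1000 peaks of the library, there were 1.26 ± 0.026 at the loci with aphidicolin and 1.48 ± 0.038 in untreated samples, without overlap (exact p = 0.1). In lists of equal length, made of the strongest peaks, the direction turned, with a mean difference, aphidicolin minus untreated, of -18.7 peaks (exact p = 0.1). In all 6 libraries 39 starts had a peak.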

How the data were processed

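The authors made peak lists and 1 count table from ATAC-seq and repli-ATAC-seq reads on mm10. Per the submitters' processing notes they used MACS2 2.2.0, bedtools 2.26.0, Bowtie2 2.2.5, cutadapt 2.2.0, SAMtools 1.4.1 and bcl2fastq 2.19.1; parameters and any read shift are not given in the sources used here. No counting tool is named. The deposited count table holds raw read counts per region, and the deposited peak lists hold the authors' peak caller's score. There were 25 pooled or consensus lists and 6 of single libraries. MEF lists were called on merged replicates per the deposited peak names; how ES cell lists were pooled is not stated. MEF bulk lists of the nascent arm were assigned by elimination.

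The 40 genes and the other gene lists were chosen with earlier results of these data known. A locus is the gene model with 10 kb each side, a gene-start region overlaps 1 kb each side of the start by at least 1 bp, and 8 genes with no promoter entry were given both ends of the gene model: Ccna2, Foxm1, Incenp, Aurkb, Tpx2, Cdc25c, Dlgap5 and Kif20a. Counts were fitted over all regions, and over sums per locus, with edgeR 4.0.16 (quasi-likelihood test, TMM, filterByExpr) in R 4.3.3, two-sided, Benjamini-Hochberg adjusted over the whole table. The table's library numbers were not tied to GEO samples beyond their group, so its libraries are called a, b and c. No 2 libraries agreed within sampling noise (lowest chi-square over its degrees of freedom 1.88). In simulated data, few features were changed, picked at random over all strengths. The region fit recovered 38 of 100 regions changed by 0.5 and 95 of 100 changed by 1 on the log2 scale (17 false calls). The locus fit recovered 99 and 100 of 100 (13 false calls). In the real table a far larger share was called, and gene-start regions are stronger, so these numbers do not give the recovery at member starts. Exact permutation tests used scipy 1.17.1 in Python 3.11.15. Library values were printed, by rule, for a named set of well-known members, the 10 loci with the largest called change and each locus called higher. The printed promoters are the first 6 of the well-known members with both motifs inside the printed stretch, none from chromosome 18. Alternatives were other scalings, filters, DESeq2 1.42.0, a replicate block, other windows and each library left out.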

Additional observations from a re-analysis of the deposited data

How the results depend on the processing

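Over 178 alternatives to the values above, 135 stayed within 1.5 times the count or kept the direction, 42 moved further and 1 reversed. With library totals alone, 44 regions were lower and 14 higher, and 23 gene-start regions were lower. With offsets that follow region strength, 45 regions and 12 gene-start regions were lower, and 1 gene-start region and 1 locus were higher. The shares over all regions, gene starts and loci under these scalings are given above. With only regions that had a peak in all 6 libraries, 3 regions were higher, where 16.4% of all such regions were. Leaving out 1 library at a time gave 52 to 81 regions lower and 2 to 9 higher, 26 to 38 gene-start regions lower, and 13 to 23 loci lower and 1 to 2 higher. In the same fits, 10.9% to 20.2% of all regions were lower and 11.0% to 21.5% higher. Of all gene-start regions 28.0% to 57.9% were lower, and of all loci 19.5% to 28.2% were lower and 18.3% to 28.3% higher. With 2 kb around the gene model 1 locus was higher, and with 50 kb 6 were, where 22.9% and 30.5% of all loci were higher. Alternatives were also added after seeing the data. Without starts of other genes 0 loci were higher, where 23.8% of all loci were. With the factors of the region test 35 were lower and 0 higher, where 55.6% and 9.15% of all loci were. Without any gene-start region 9 were lower and 4 higher, where 23.5% and 23.6% of all loci were. The cause of these shifts was not tested.

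Deviations from the group means had r = 0.263, 0.0125 and 0.154 between same-numbered aphidicolin and untreated libraries. Between differently numbered ones r ran from -0.25 to 0.135. Whether equal numbers mark pairs was not tested, and the main fits used no block. With the replicate number as a block, 87 regions were lower and 7 higher, where 21.9% of all regions were lower and 21.6% higher. At gene starts 40 regions were lower and 0 higher, where 56.7% of all gene-start regions were lower and 5.48% higher. By locus 22 were lower and 2 higher, where 30.4% of all loci were lower and 30.7% higher.

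Among peaks above the median score of each list, the loci held 138, 137 and 127 peaks in ES cell bulk at 0, 9 and 48 h, 108, 121 and 107 in nascent-arm MEF bulk at 6, 12 and 36 h, and 75 in Q1. At 6 h in MEFs, 5 nascent and 15 mature starts had such a peak. With 2 kb around the gene model, ES cell bulk held 160, 156 and 128 peaks and MEF bulk 119 and 137 at 6 and 12 h. In nascent lists limited to the 3222 strongest peaks, starts with a peak numbered 8, 8 and 7 in ES cells at 0, 9 and 48 h, and 17 and 13 in MEFs at 12 and 36 h. All genes were not counted in these cut lists or with 2 kb, so these counts show nothing particular to the members. The aphidicolin minus untreated difference in peaks at the loci, 13.67 per library, was -18.67 in lists of equal length and 6.833 to 20.33 without 1 library. Depth of the peak lists is unknown, so a missing peak does not show closed chromatin.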
